A study of Mus musculus with 8 samples.

Results

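The genes described here are 9 genes of eosinophil biology in the mouse jejunum. They were chosen by name: the eotaxin genes Ccl11 and Ccl24, the receptor genes Ccr3, Il5ra and Siglecf, and the granule genes Prg2, Epx, Ear1 and Ear2. All 9 were found among the 56941 gene identifiers of the count table. Bulk RNA sequencing profiled the jejunum, which lies between duodenum and ileum, in naive C3H/HeJ (C3H) and naive C57BL/6 (B6) mice, with 4 libraries per strain (C3H 1, 3, 4 and 5 and B6 2, 3, 4 and 5), all labelled batch 1. Neither strain was treated; mice of 6 to 8 weeks shared cages for at least 8 weeks before harvest, and the labels do not say at which point they had that age. C3H/HeJ mice are known to carry a loss-of-function allele of Tlr4, the lipopolysaccharide receptor. No label ties a library to a mouse of its own, so the p-values cover the spread among libraries, which may be technical.

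Eosinophils are granulocytes that mature in the bone marrow under interleukin-5, which signals through the receptor chain that Il5ra encodes. They settle in the lamina propria of the healthy small intestine, drawn by the eotaxins, chemokines that bind the receptor encoded by Ccr3. Their granules hold major basic protein (Prg2), eosinophil peroxidase (Epx) and ribonucleases (the Ear genes), and much of the granule RNA is made while the cells mature in the marrow. Siglecf encodes a sialic acid-binding receptor of the eosinophil surface, and mouse tuft cells, chemosensory cells of the epithelium, also express it.

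Sequences show how alike some of these genes are, which bears on what reads can tell apart. Both eotaxins are CC chemokines, named for adjacent cysteines. The 90 coding bases around the adjacent cysteine codons (capitals) are shown for each, coding strand, from the GENCODE M21 transcripts of GRCm38.
Ccl11: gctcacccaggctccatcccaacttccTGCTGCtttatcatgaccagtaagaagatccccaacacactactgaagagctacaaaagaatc
Ccl24: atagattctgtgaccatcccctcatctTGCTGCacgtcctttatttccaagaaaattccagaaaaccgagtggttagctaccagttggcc
Over their whole coding sequences the eotaxins were 56.4% identical, and no 50-base window of the Ccl11 or Ccl24 transcript occurred in a transcript of another gene. Ear1 and Ear2 lie on chromosome 14 in a family of close copies. Their promoters, 250 bases before to 50 after the start in the RefSeq table for GRCm38.p6, are shown at chr14:43819590-43819889 (minus strand) and chr14:44102404-44102703 (plus strand), with the bases that differ in capitals.
Ear1: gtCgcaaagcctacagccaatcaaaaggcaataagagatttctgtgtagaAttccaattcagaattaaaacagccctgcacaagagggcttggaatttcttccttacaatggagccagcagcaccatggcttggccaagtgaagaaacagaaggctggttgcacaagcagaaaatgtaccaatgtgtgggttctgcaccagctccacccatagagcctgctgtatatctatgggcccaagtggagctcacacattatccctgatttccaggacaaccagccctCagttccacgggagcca
Ear2: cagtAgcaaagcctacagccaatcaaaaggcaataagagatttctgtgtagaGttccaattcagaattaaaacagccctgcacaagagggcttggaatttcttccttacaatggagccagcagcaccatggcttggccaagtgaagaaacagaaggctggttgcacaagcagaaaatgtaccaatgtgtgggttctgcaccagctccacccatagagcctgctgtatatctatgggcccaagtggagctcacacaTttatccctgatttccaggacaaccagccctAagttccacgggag
These promoters matched at 294 of 298 aligned positions (98.7%), 1 of them a gap, and the coding sequences at 95.1%. Of the 50-base windows of the transcripts, 41.5% for Ear2 and 57.4% for Ear1 also occurred in another gene, namely other Ear genes or their pseudogenes. At 100 bases the shares were 13.9% and 23.9%, so counts of single Ear genes are uncertain. For Prg2, Epx and Ccr3 no 50-base window was shared, for Siglecf 0.235% and for Il5ra 1.05%.

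Total counts ran from 37205896 to 58251332 per library. Transcripts of pancreas, an organ next to the gut, set 2 libraries apart: the summed level of 12 pancreatic genes was 3168 CPM (counts scaled to library size) in C3H 3 and 1435 CPM in C3H 5. It was 7.77 to 62.1 CPM in the other C3H libraries and 7.26 to 268 CPM in the B6 libraries. Values without the 4 libraries richest in these transcripts (C3H 3, C3H 5, B6 2 and B6 3) stand beside each of the 9 genes that changed, and for other genes the text says where the call was lost. The tissue label fitted its markers: Fabp2, a fatty acid-binding protein of absorptive cells, averaged 6264 CPM in C3H and 6209 CPM in B6, and Vil1, a microvillus protein, 3256 and 3630 CPM. In bulk tissue, fewer cells of a type and less RNA per cell cannot be told apart.

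Of the 9 genes, 7 passed the filter on low counts and were tested, and 4 of them changed between the strains: Ccl11 and Ccr3 rose in C3H, and Prg2 and Siglecf fell. Across all 18025 genes tested, 21.4% changed (adjusted p under 0.05 in edgeR's quasi-likelihood test), 11.3% higher and 10.1% lower in C3H. The same 4 genes had strain values that did not overlap, as did 24.4% of all genes tested. The median log2 fold change (C3H over B6) was 0.01 for the 7 genes and 0.03 for all genes tested. Ccl24, Il5ra and Ear2 did not pass the threshold, and Epx and Ear1 had too few counts to be tested.

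**Figure D1:**
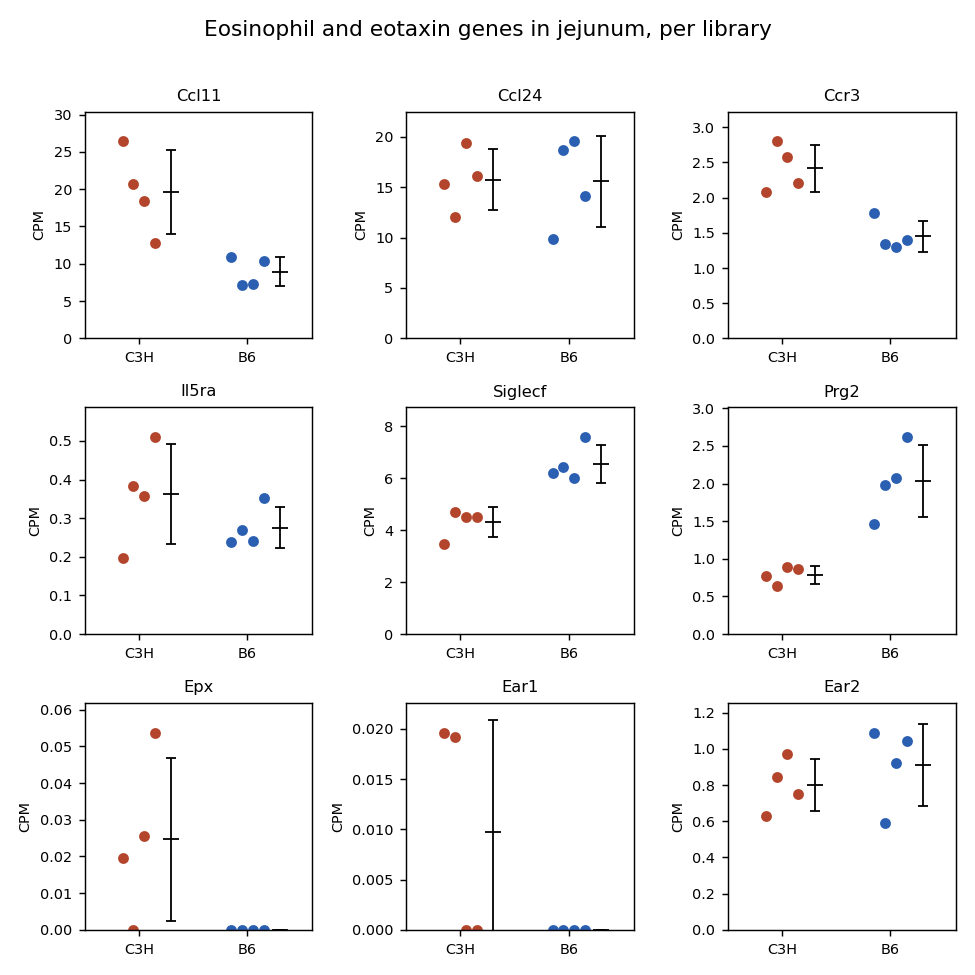
Level of each of the 9 genes in CPM (vertical axes, each starting at 0) in the 4 C3H and the 4 B6 libraries; points are libraries, and the bar beside them is the mean with its standard deviation. The strains separate for Ccl11, Ccr3, Siglecf and Prg2, and the whole scale of Epx and Ear1 comes from 0 to 2 counts per library.

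Ccl11 (ENSMUSG00000020676, chromosome 11) encodes eotaxin-1, the main eosinophil attractant of the gut. It had 26.4, 20.7, 18.4 and 12.8 CPM in C3H 1, 3, 4 and 5, against 10.97, 7.16, 7.34 and 10.3 CPM in B6 2, 3, 4 and 5. Every C3H library lay above every B6 library, with C3H 1 highest and C3H 5 close to the B6 range. The mean was 19.6 ± 5.64 CPM in C3H and 8.95 ± 1.98 CPM in B6 (SD, n = 4 each), a 2.19-fold rise (log2 fold change 1.13, standard error 0.21, adjusted p = 0.00279). With 1 library left out the log2 fold change was 0.94 to 1.29 and adjusted p was at most 0.0105. Without the 4 pancreas-rich libraries it was 1.34 (adjusted p = 0.00517).

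Ccl11 is made largely by stromal cells, so the fibroblast markers were set beside it, a ratio chosen after its values were seen. The summed level of 14 fibroblast genes was 522 to 758 CPM in C3H and 521 to 744 CPM in B6, and these ranges overlapped. Ccl11 equalled 2.45% to 3.65% of that sum in C3H libraries and 1.27% to 1.63% in B6 libraries, with no overlap. Of the 13 fibroblast genes tested 1 changed, Thy1, which fell 1.65-fold; 2 passed without C3H 1 and 3 without C3H 5, and 0 passed without the pancreas-rich libraries.

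Ccl24 (ENSMUSG00000004814, chromosome 5), which encodes eotaxin-2, a macrophage product, did not pass the threshold. It had 15.3, 12.1, 19.4 and 16.1 CPM in C3H 1, 3, 4 and 5, against 9.83, 18.7, 19.6 and 14.2 CPM in B6 2, 3, 4 and 5. The ranges overlapped, and the B6 libraries alone spanned from the lowest to the highest value of all 8. The difference on the log2 scale was 0.01 with a standard error of 0.21 (adjusted p = 0.981), and it lay between -0.17 and 0.14 with 1 library left out. The summed level of 12 macrophage and monocyte genes was 555 to 713 CPM in C3H and 556 to 670 CPM in B6. Counts of Ccl11 per count of Ccl24 were 0.796 to 1.73 in C3H and 0.375 to 1.12 in B6, which overlap.

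The chemokine genes next to the eotaxins had far fewer reads, and those tested did not pass the threshold. In the chemokine cluster of chromosome 11, Ccl2, which attracts monocytes, had 54 counts over the C3H libraries and 61 over the B6 libraries (adjusted p = 0.800). Ccl8, which attracts monocytes and other leukocytes, had 56 and 98 counts (log2 fold change -0.80, adjusted p = 0.110); it passed the threshold without B6 4 (adjusted p = 0.0210). Ccl7, Ccl12 and Ccl1 had 21, 19 and 0 counts in C3H and 14, 32 and 5 in B6 and were not tested. Ccl26, the third eotaxin gene and the neighbour of Ccl24, had 3 counts in C3H and 7 in B6.

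Ccr3 (ENSMUSG00000035448, chromosome 9), the eotaxin receptor of eosinophils, also rose in C3H. It had 2.08, 2.80, 2.58 and 2.20 CPM in C3H 1, 3, 4 and 5, against 1.78, 1.35, 1.29 and 1.39 CPM in B6 2, 3, 4 and 5. The strains did not overlap, and B6 2 was the B6 library nearest to C3H. The mean was 2.42 ± 0.335 CPM in C3H and 1.45 ± 0.221 CPM in B6 (SD, n = 4 each), a 1.67-fold rise (log2 fold change 0.74, standard error 0.16, adjusted p = 0.00713). With 1 library left out it was 0.64 to 0.83, with adjusted p at most 0.0270. Without the 4 pancreas-rich libraries the log2 fold change was 0.78 and the call was lost (adjusted p = 0.0860).

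Ccr3 lies in a cluster of chemokine receptor genes, and its neighbours described here did not move alike. Xcr1, the receptor of cross-presenting dendritic cells, rose 2.18-fold (adjusted p = 0.000415, and 0.00781 without the pancreas-rich libraries). Ccr1, which eosinophils also carry, averaged 8.00 ± 0.930 CPM in C3H and 8.21 ± 0.769 CPM in B6 (SD, n = 4 each; adjusted p = 0.860). Ccr2, a monocyte receptor, had a log2 fold change of -0.12 (adjusted p = 0.732).

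Siglecf (ENSMUSG00000039013, chromosome 7) went the other way from Ccr3. It had 3.45, 4.72, 4.53 and 4.51 CPM in C3H 1, 3, 4 and 5, against 6.19, 6.42, 6.01 and 7.60 CPM in B6 2, 3, 4 and 5. Every C3H library lay below every B6 library, with C3H 1 lowest. The mean was 4.30 ± 0.575 CPM in C3H and 6.55 ± 0.717 CPM in B6 (SD, n = 4 each), a 1.52-fold fall (log2 fold change -0.61, standard error 0.13, adjusted p = 0.00630). With 1 library left out it was -0.68 to -0.52, with adjusted p at most 0.0199. Without the 4 pancreas-rich libraries it was -0.78 and the call was lost (adjusted p = 0.0537).

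Tuft cell markers moved with Siglecf. Their summed level over 14 genes was 149 to 161 CPM in C3H and 206 to 231 CPM in B6; 10 of 13 tested fell and 0 rose, 9 or 10 with 1 library left out. Trpm5, the taste channel of tuft cells, fell 3.32-fold, Sh2d7 2.35-fold, Rgs13 2.39-fold and Lrmp 1.74-fold. The median log2 fold change of the tuft genes tested was -0.89, against -0.61 for Siglecf. Siglecf equalled 2.14% to 3.17% of the tuft sum in C3H libraries and 2.84% to 3.29% in B6 libraries, which overlap, a ratio chosen after its values were seen. The part of tuft cells in the fall of Siglecf was not tested. Of its relatives, the macrophage gene Siglec1 rose 2.28-fold (adjusted p = 0.00104, and 0.00740 without the pancreas-rich libraries), while Siglece, Siglecg, Siglech, Cd33 and Cd22 had log2 fold changes between -0.46 and 0.32 and did not pass the threshold. Counts of Ccr3 per count of Siglecf were 0.488 to 0.602 in C3H and 0.183 to 0.288 in B6. This ratio had to separate the strains, because every C3H library was above B6 for Ccr3 and below it for Siglecf.

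The promoters of the receptor genes Ccr3 and Siglecf are shown because these genes moved in opposite directions; GATA factors such as GATA1 are required for eosinophil development in mice. The GATA words searched, on either strand, were AGATAA and AGATAG and the same words with T as their first letter, and they are in capitals; the sequences are the RefSeq promoters at chr9:124021721-124022020 and chr7:43351091-43351390 of GRCm38.p6, both plus strand.
Ccr3: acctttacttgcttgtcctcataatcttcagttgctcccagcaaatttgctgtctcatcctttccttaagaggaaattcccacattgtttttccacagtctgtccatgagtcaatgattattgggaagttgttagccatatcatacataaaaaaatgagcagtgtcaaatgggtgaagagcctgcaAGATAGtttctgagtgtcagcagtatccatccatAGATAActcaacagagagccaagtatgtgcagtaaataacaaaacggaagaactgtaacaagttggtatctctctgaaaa
Siglecf: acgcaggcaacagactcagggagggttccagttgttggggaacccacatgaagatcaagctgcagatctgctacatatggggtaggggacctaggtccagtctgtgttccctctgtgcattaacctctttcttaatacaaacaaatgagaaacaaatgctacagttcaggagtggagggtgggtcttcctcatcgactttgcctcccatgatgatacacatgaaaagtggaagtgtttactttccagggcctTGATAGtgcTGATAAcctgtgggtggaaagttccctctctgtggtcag
Each holds 2 GATA words. Of all 32851 promoters of this length 29.8% hold at least 1, and the share with 2 was not counted. In Ccr3 the words begin at positions -64 and -30 from the start, and in Siglecf at 2 and 11. Il5ra holds 1 GATA word, and Epx, Ear1 and Ear2 hold none. The STAT6 word, TTC and GAA spaced by any 4 bases, present in 6.95% of promoters, was found in Il5ra and Epx. These are letters of the reference, which derives from B6, and C3H alleles were not analysed here. Promoters of 6 of the 9 genes were in the table.

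Il5ra (ENSMUSG00000005364, chromosome 6) was near the limit of the counts. It had 10, 20, 14 and 19 counts in C3H 1, 3, 4 and 5 and 9, 11, 13 and 19 counts in B6 2, 3, 4 and 5. The mean was 0.362 ± 0.129 CPM in C3H and 0.275 ± 0.0536 CPM in B6 (SD, n = 4 each), a log2 fold change of 0.36 with a standard error of 0.31 (adjusted p = 0.470), and the strains overlapped. Il5, the gene of its ligand, had 0 counts in C3H and 2 in B6.

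**Figure D2:**
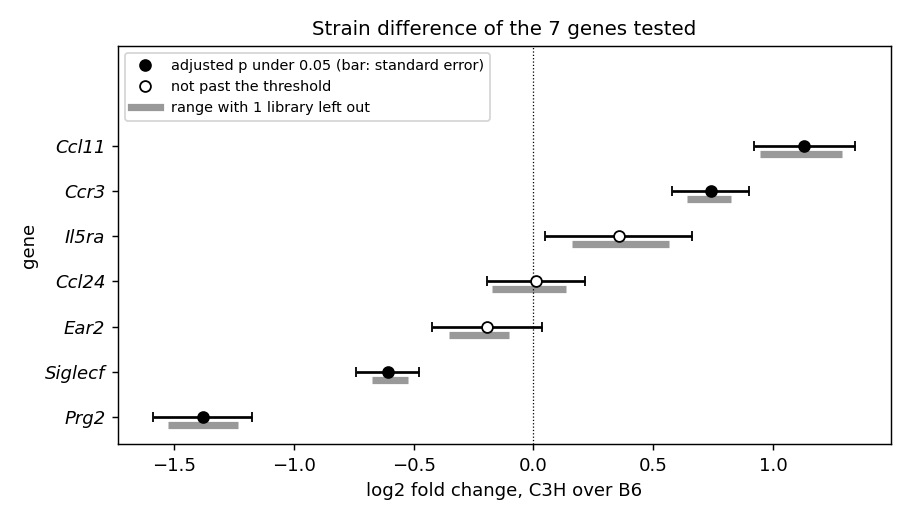
Log2 fold change, C3H over B6 (horizontal axis), of the 7 genes tested, with standard error bars; filled points passed an adjusted p of 0.05, and grey bars span the values with 1 library left out. The grey bars of Ccl11 and Ccr3 stay above 0 and those of Siglecf and Prg2 below it, while Ccl24 lies across 0.

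Prg2 (ENSMUSG00000027073, chromosome 2), which encodes major basic protein, was the granule gene that changed. It had 0.765, 0.634, 0.895 and 0.859 CPM in C3H 1, 3, 4 and 5, against 1.46, 1.98, 2.07 and 2.62 CPM in B6 2, 3, 4 and 5. The C3H libraries were low and close together, and the B6 libraries were higher and more spread. The mean was 0.788 ± 0.117 CPM in C3H and 2.03 ± 0.474 CPM in B6 (SD, n = 4 each), a 2.60-fold fall (log2 fold change -1.38, standard error 0.21, adjusted p = 0.000613). It rested on 139 counts in C3H and 389 in B6. With 1 library left out it was -1.53 to -1.23, with adjusted p at most 0.00245, and without the 4 pancreas-rich libraries it was -1.51 (adjusted p = 0.00572).

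Epx (ENSMUSG00000052234, chromosome 11) had 1, 0, 1 and 2 counts in C3H 1, 3, 4 and 5 and 0 in all B6 libraries. The exact 95% interval of the count ratio of C3H over B6 has a lower limit of 0.686, so no fold is given; a count of 0 over the B6 libraries allows 3 counts, 0.0161 CPM. Floors and intervals cover counting error only. In the fit with no filter on low counts its adjusted p was 0.208, where 13.3% of 32072 genes passed. Its neighbours Mpo and Lpo, peroxidases of neutrophils and of secretions, had 12 and 3 counts in C3H and 1 and 0 in B6. Prg3, the relative and neighbour of Prg2, had 1 and 2 counts. In both strains eosinophil peroxidase transcripts were near the limit of what this depth detects.

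Ear2 (ENSMUSG00000072596) and Ear1 (ENSMUSG00000072601), whose promoters are shown above, were far apart in counts. Ear2 had 32, 44, 38 and 28 counts in C3H 1, 3, 4 and 5 and 41, 24, 50 and 56 counts in B6 2, 3, 4 and 5. Its mean was 0.799 ± 0.145 CPM in C3H and 0.910 ± 0.226 CPM in B6 (SD, n = 4 each), and the strains overlapped. The log2 fold change was -0.20 with a standard error of 0.23 (adjusted p = 0.610). Ear1 had 1, 1, 0 and 0 counts in C3H and 0 in all B6 libraries (adjusted p = 0.404 with no filter). Ear6, Ear10 and Ear14 had 0, 3 and 0 counts in C3H and 0, 2 and 1 in B6. Ear2 overlaps Gm49101, a noncoding gene of the opposite strand with 50 counts over all 8 libraries, and the strand setting of the counting is not given in the sources used here. Ear1 overlaps the pseudogenes Ear-ps12 and Ear-ps9 on its own strand and Ang-ps2 on the opposite strand, each with 0 counts. Whether these overlaps lowered the count of Ear1 was not tested.

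Another ribonuclease of this family, Rnase2a, was present in C3H libraries and not counted in B6 libraries; it was named after its values were seen. RefSeq lists it under the older symbol Ear11. It had 8, 13, 5 and 9 counts in C3H 1, 3, 4 and 5 and 0 in all B6 libraries; the exact 95% interval of the count ratio of C3H over B6 has a lower limit of 9.35. It did not pass the filter on low counts; with no filter its adjusted p was 0.000252. None of its 50-base windows occurred in another gene, and its coding sequence was 79.8% identical to Ear2. Of the ribonuclease genes on the same chromosome, Rnase4 rose 1.40-fold, and Rnase6, Ang and the Paneth cell gene Ang4 fell 1.78-fold, 1.31-fold and 2.32-fold. Without the pancreas-rich libraries the calls of Rnase4, Ang and Ang4 were lost (adjusted p = 0.0942, 0.206 and 0.0578), and that of Ang also without C3H 1, C3H 4, B6 2 or B6 5 (up to 0.0867).

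General immune cell genes were lower in C3H as a sum, while their median log2 fold change was -0.04. The summed level of 8 such genes was 262 to 284 CPM in C3H and 292 to 348 CPM in B6, without overlap. Of the 8, all tested, Ptprc (CD45, carried by all leukocytes), Cd52 and Coro1a fell 1.35-fold, 1.90-fold and 1.37-fold, and the myeloid integrin gene Itgam rose 1.51-fold. The rest had log2 fold changes between -0.09 and 0.22 and did not pass the threshold. Without the pancreas-rich libraries 1 passed, Cd52, and Itgam was also lost without C3H 3 (adjusted p = 0.0531). Prg2 equalled 0.241% to 0.315% of the immune sum in C3H libraries and 0.500% to 0.819% in B6 libraries, without overlap. Ccr3 equalled 0.795% to 1.07% of it in C3H libraries and 0.388% to 0.609% in B6 libraries. The Ccr3 share had to separate the strains, because every C3H library was above B6 for Ccr3 and below it for the sum. Both ratios were chosen after their values were seen.

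Of the granule genes tested, Prg2 passed the threshold and Ear2, whose counts are uncertain, did not. Whether their changes differ was not tested. Counts of Prg2 per count of Ear2 were 0.750 to 1.22 in C3H and 1.34 to 3.38 in B6, without overlap. Counts of Prg2 per count of Ccr3, which is not a granule gene, were 0.226 to 0.390 in C3H and 0.821 to 1.88 in B6. The ratio to Ccr3 had to separate the strains, because every C3H library was below B6 for Prg2 and above it for Ccr3. Per kilobase of exon in GENCODE M21, Ccl11 led the levels in C3H, with 18.1 ± 5.21 CPM per kb against 8.27 ± 1.83 in B6. Ccl24 had 12.1 ± 2.33 CPM per kb in C3H and 12.02 ± 3.48 in B6. In C3H the order went on with Siglecf (1.54 ± 0.206), Ear2 (1.11 ± 0.202), Prg2 (0.941 ± 0.139), Ccr3 (0.739 ± 0.102) and Il5ra (0.101 ± 0.0361 CPM per kb). In B6 Prg2 (2.43 ± 0.566) and Siglecf (2.35 ± 0.257) were level within their spread, before Ear2 (1.27 ± 0.314), Ccr3 (0.444 ± 0.0676) and Il5ra (0.0771 ± 0.0150 CPM per kb). Neighbours within 1 SD in C3H were Ear2 and Prg2; all values are mean ± SD with n = 4.

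Other genes of eosinophils moved in both directions. In a list of 16 further granule, surface and lineage genes, 11 were tested, 7 rose and 2 fell (median log2 fold change 0.81). Alox15, a lipoxygenase that eosinophils make, rose to 5.76 ± 0.928 CPM in C3H, against 2.78 ± 0.468 CPM in B6 (SD, n = 4 each; adjusted p = 0.000658). Ptgdr2, the prostaglandin D2 receptor of eosinophils and other type 2 cells, rose 3.10-fold on 82 counts in C3H and 27 in B6, and the surface protease gene Mmp25 1.79-fold. Cd101, an inhibitory receptor gene, fell 2.05-fold. The other members that passed, named after their values were seen, were Cebpe, Gata1, Gata2 and Adora3, which rose, and Pirb, which fell; Cebpe and Gata1 encode factors of eosinophil development. Gata1 rested on 54 C3H counts and 28 B6 counts, and its call ended without B6 2, B6 3, B6 5 or any 1 C3H library (adjusted p up to 0.121). Gata2 was lost without C3H 1, C3H 3, B6 2, B6 3 or B6 4 (up to 0.126) and Adora3 without C3H 3, C3H 5, B6 4 or B6 5 (up to 0.102). Without the 4 pancreas-rich libraries 5 members of this list passed, and Cebpe was among those lost (adjusted p = 0.295).

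Several of these genes are shared with mast cells, whose markers were higher in C3H. The summed level of 10 mast cell genes was 27.9 to 50.4 CPM in C3H and 11.02 to 15.01 CPM in B6, and 8 of 8 tested rose, among them Cpa3 (9.41-fold), Mcpt4 (13.2-fold), Mcpt2 (10.04-fold) and Tpsb2 (5.79-fold). Gata1, Gata2 and Ptgdr2 are also expressed by mast cells, and the part of mast cells in their rise was not tested. Any part of mast cells in the rise of Ccr3 and Adora3 was not tested either. Prg2 was lower in the strain with the higher mast cell sum, and any part of mast cells in its level was not tested. Of basophil genes 1 of 6 was tested, Cpa3, which rose; Mcpt8, their defining protease gene, was at 8 counts over the C3H libraries and 7 over the B6 libraries. Another basophil gene passed without C3H 5, B6 2, B6 3 or the pancreas-rich libraries (2 genes each).

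Of 12 further attractants and growth factors, 7 were tested, 1 rose and 1 fell (median -0.14). Ccl5, a T cell chemokine that also binds CCR3, fell to 23.9 ± 4.76 CPM in C3H, against 76.3 ± 10.1 CPM in B6 (SD, n = 4 each; adjusted p = 9.50e-06). The genes of T cells and intraepithelial lymphocytes fell with it: 10 of 11 tested fell and 1 rose, and their sum was 172 to 273 CPM in C3H and 417 to 440 CPM in B6. Vcam1, an adhesion molecule of vessels, rose 1.29-fold, a call that ended without C3H 3, C3H 4, B6 2, B6 4 or the pancreas-rich libraries (adjusted p up to 0.0970 with 1 library left out). The count of this list was 1 without C3H 3, without B6 2 and without the pancreas-rich libraries. Csf2, which encodes the eosinophil survival factor GM-CSF, averaged 1.55 ± 0.374 CPM in C3H and 2.40 ± 0.517 CPM in B6 (SD, n = 4 each; adjusted p = 0.0506), and passed without C3H 4 or B6 4 (0.0368 at the lowest).

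Of 11 cytokine receptor genes, all tested, 1 rose and 0 fell (median -0.14). Il3ra, the interleukin-3 receptor chain, rose 2.995-fold to 6.60 ± 0.596 CPM in C3H, against 2.20 ± 0.307 CPM in B6 (SD, n = 4 each; adjusted p = 7.43e-06). The chain that the interleukin-3, interleukin-5 and GM-CSF receptors share, Csf2rb, had a log2 fold change of 0.28 (adjusted p = 0.106). The count was 2 without C3H 5, B6 4 or B6 5. Of 16 type 2 cytokines and inducers of eotaxin, 11 were tested, 0 rose and 2 fell (median -0.23): Il33, an alarmin, 2.04-fold and Socs3, a feedback inhibitor of cytokine signalling, 2.05-fold. Il4 and Il13, which induce eotaxins, had 19 and 1 counts in C3H and 11 and 3 in B6. Across the 4 lists 14 genes passed, 11 to 15 with 1 library left out and 9 without the pancreas-rich libraries. The granule, surface and lineage list gave 9 of the 14, out of 11 tested. The other lists gave 2 of 7, 1 of 11 and 2 of 11, where 21.4% of all genes tested passed.

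**Figure D3:**
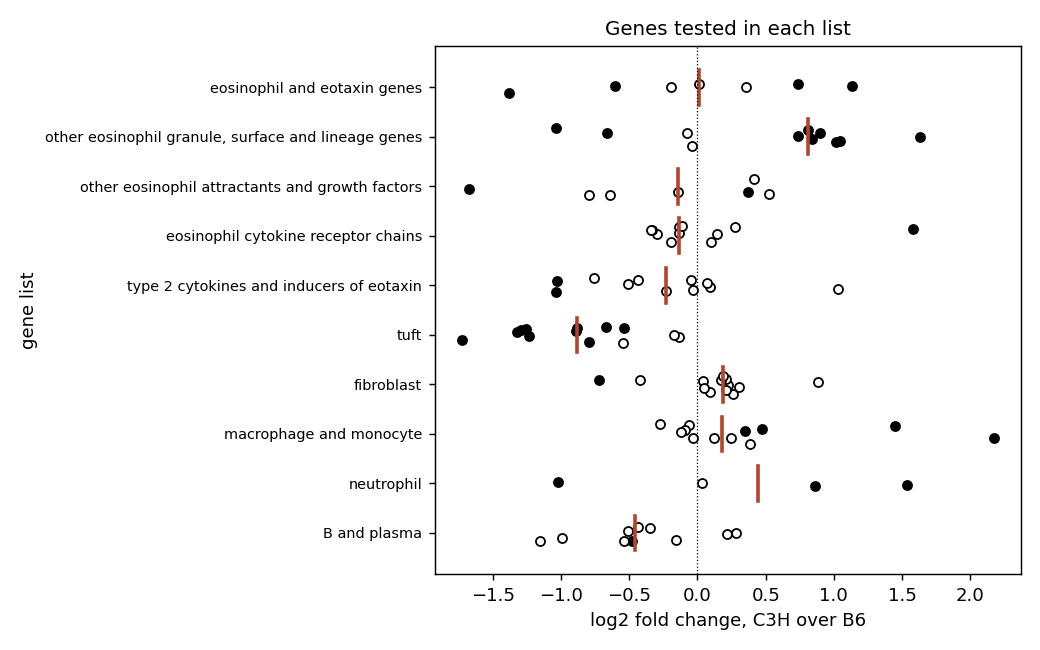
Log2 fold change, C3H over B6 (horizontal axis), of the tested genes of each list (rows; points are spread vertically at random); filled points passed an adjusted p of 0.05 and the vertical bar is the median of the list. The 7 eosinophil and eotaxin genes lie on both sides of 0, while 10 of 13 tuft cell genes lie filled on the left.

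Other cells that make some of these transcripts were also set beside them. B and plasma cell genes, a lineage in which some cells carry the interleukin-5 receptor, summed to 1004 to 1275 CPM in C3H and 1392 to 1648 CPM in B6. Of 10 tested, Jchain, the joining chain of secreted antibodies, fell 1.39-fold, and 0 rose; 0 passed without C3H 3, C3H 5 or B6 2, 2 without B6 5, 4 without B6 3 and 3 without the pancreas-rich libraries. Neutrophil genes summed to 5.53 to 6.39 CPM in C3H and 4.46 to 5.46 CPM in B6, with Elane at 0 in all libraries. Of the 4 tested, Retnlg and Cxcr2 rose and Ltf fell; 0 passed without the pancreas-rich libraries. Ltf, whose strain values overlapped (adjusted p = 0.0484), was also lost without C3H 1, C3H 3, C3H 4, B6 2 or B6 3 (adjusted p up to 0.131). Of 12 macrophage and monocyte genes 4 rose, among them Cd14 (4.51-fold) and Ly6c2 (2.72-fold), and 2 passed without the pancreas-rich libraries.

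**Figure D4:**
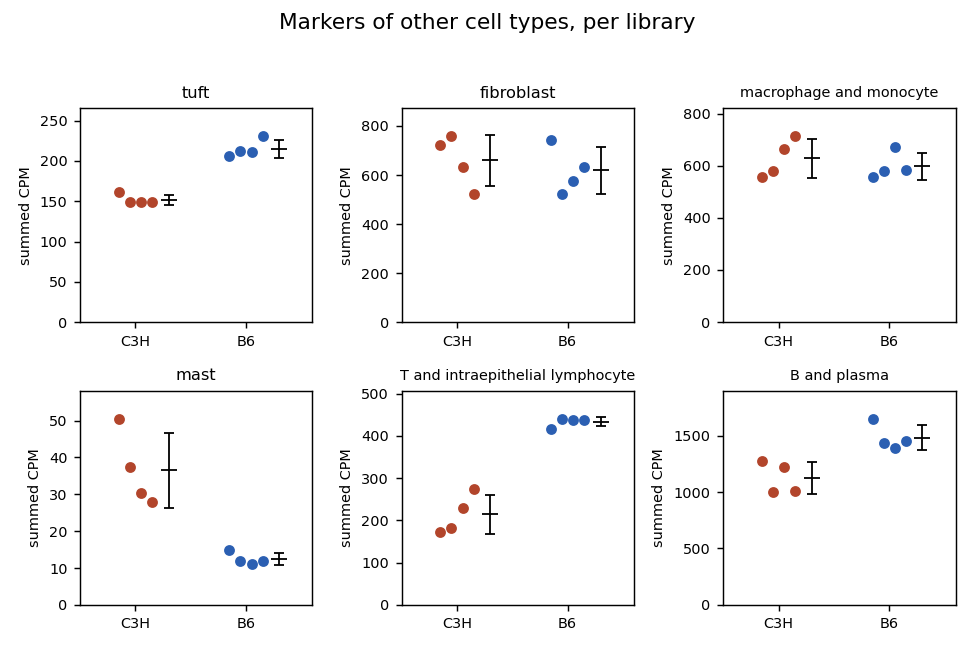
Summed level in CPM (vertical axes, each starting at 0) of markers of 6 other cell types in the 4 C3H and the 4 B6 libraries, with the mean and its standard deviation beside the points. Tuft cell, T cell and B cell sums are lower and mast cell sums higher in C3H, and the fibroblast and macrophage sums overlap.

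The genes whose pattern over the 8 libraries was most like each gene were found by the root mean square difference of log2 CPM after centring, a description that includes the strain difference itself. For Ccl11 they were Rwdd3, the gene model Gm13212 and Timp1 (differences of 0.18, 0.18 and 0.19). For Ccr3 they were Adamts7, Colec12 and Gldc (each 0.09), and for Siglecf 2010001K21Rik, Zhx2 and Card14 (0.07, 0.09 and 0.09). For Prg2 they were Gsg1, Gm13033 and Trac, the T cell receptor constant gene (0.12, 0.13 and 0.13). For Ccl24 they were Car7, Gm8172 and Gm42918 (0.12, 0.13 and 0.16).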

How the data were processed

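Raw counts per Ensembl gene in 8 jejunum libraries were used as the authors deposited them. Per the submitters' processing notes, STAR 2.7.9a, HTSeq 2.0.2 and GRCm39 were used; for the annotation release and strand setting the sources used here give nothing. Per the labels, libraries were made from 200 ng of RNA (integrity number over 7) with a stranded mRNA kit. Symbols matched 51948 of 56941 identifiers (GENCODE M21, GRCm38, so gene coordinates are not given).

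C3H was compared with B6 in edgeR 4.0.16 (R 4.3.3): TMM scaling (factors 0.915 to 1.13), filterByExpr at a minimum count of 10, quasi-likelihood F test and Benjamini-Hochberg adjustment over all 18025 genes tested, threshold 0.05. Standard errors were calculated back from the F statistic. The method was tested on simulated data. The chi-square per degree of freedom between libraries of 1 strain was 23.3 to 89.6, so no pair was a copy. Alternatives included DESeq2 1.42.0, limma-voom (3.58.1) and each library left out.

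The 9 genes and all lists were chosen with earlier results of these data known. Named were all 9 genes, for each list described at most 4 genes, those lowest in adjusted p (where none passed, the 2 highest in level), relatives and neighbours of the 9, and the 3 genes most alike in pattern for those with a mean of at least 50 counts. Il4, Il5, Il13, Csf2, Csf2rb, Mcpt8 and Elane, and genes marked in the text, were named outside this rule after their values were seen.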

Additional observations from a re-analysis of the deposited data

Results flagged for a closer look

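Siglecf in C3H 1 stood apart from the other C3H libraries, at 3.45 CPM against 4.51 to 4.72 CPM; its gap to the nearest library was 0.834 of the range of the group, just above Dixon's critical value for 4 libraries. Chance marks about 1 in 20 groups in this way, and 14 groups were examined, the 7 tested genes in each strain. Without C3H 1 the log2 fold change of Siglecf was -0.52 (adjusted p = 0.0131), against -0.61 with all libraries.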

How the results depend on the processing

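Of 136 fold changes of the 7 tested genes under another setting, 134 kept their side of the threshold and 0 changed called direction. Ccr3 and Siglecf lost their calls without the 4 pancreas-rich libraries, where 2 libraries per strain were left. Epx and Ear1 were fitted only with no filter on low counts. Calls of all genes were 3857, of which 2040 were higher and 1817 lower in C3H; without those 4 libraries they were 1675 (853 higher, 822 lower), and at a threshold of 0.01 they were 2326 (1217 higher, 1109 lower). With 1 library left out they were 3099 to 3682. With a mean of at least 100 counts 1327 genes were higher. Of the 9 genes 4 passed, 2 without the 4 libraries and 2 with the mean of 100 counts, which removes Ccr3 and Prg2 by construction; with 1 library left out 4 passed in each fit. Of the other eosinophil genes 14 passed, 9 of them from the granule, surface and lineage list, and 9 passed without the 4 libraries. Of 378 list counts under another setting 67 moved by over 1.5 times.

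The strains share replicate numbers 3, 4 and 5. The correlation of deviations between same-numbered libraries was 0.11, 0.14 and -0.04, so the numbers were not taken to pair the libraries. A replicate block in those 6 libraries gave 2919 calls, against 3212 without it, and 4 of the 9 genes passed in both. Depth limits Epx, Ear1 and Il5ra, at 0 to 20 counts per library.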
